A study of Mus musculus with 12 samples.

Results

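Genes with symbols beginning in Kcn encode the pore-forming and auxiliary subunits of potassium channels. Of the 55421 genes in the count table, 92 carried a symbol made of Kcn, letters and a number. The genes described here are the 71 of these that averaged at least 1 CPM, a count scaled to a library of 1000000, over the 12 libraries, here with total counts as library sizes, and were not among the excluded GIRK subunits Kcnj3, Kcnj6 and Kcnj9, the inward rectifiers opened by G proteins. The remaining 18 symbols averaged under 1 CPM. Just inside that limit were Kcnmb1, at a mean of 1.21 CPM on total counts, and Kcnh8, at 1.19 CPM, and just outside it were Kcne4, at 0.887 CPM, and Kcnk18, at 0.765 CPM. Kcnj5, a further GIRK subunit that was not excluded by name, averaged 0.638 CPM and so was left out. All later CPM are scaled by TMM as well, on which scale Kcnmb1 and Kcnh8 both stand at 1.18 CPM and the same 71 genes are members. All 71 genes passed the filter on low counts that left 20015 genes for testing.

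PolyA RNA was sequenced from the medial prefrontal cortex of wild-type male C57BL/6 mice aged 10 to 12 weeks. Each had been trained with 3 tones that ended in a 0.7 mA foot shock, and tissue was collected 2 h after this training. The drug was dexmedetomidine (Dex), an agonist of alpha2 adrenergic receptors used as a sedative, given by intraperitoneal injection at a dose of 40 µg/kg and a volume of 10 ml/kg. Control mice received the same volume of normal saline. The 4 groups of 3 libraries were prelimbic cortex (PL) after Dex, PL after saline, infralimbic cortex (IL) after Dex and IL after saline. The extraction protocol names prelimbic tissue for every sample while 6 titles name IL, and the titles were followed. The labels do not say whether the libraries of a group came from separate mice, or whether PL and IL libraries of 1 number came from 1 mouse, so the p-values cover only differences among these samples, which may be technical.

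Potassium channels let potassium leave the neuron and so return the membrane towards rest after an action potential, set the resting potential and limit repeated firing. Alpha subunits form the pore. Voltage-gated families (Kv1 to Kv4, Kv7 and Kv10 to Kv12) open on depolarisation, calcium- and sodium-activated families open when those ions enter the cell, inward rectifiers pass current best near rest, and K2P (tandem-pore-domain) channels carry background leak. Silent Kv subunits form no channel alone and alter the Kv2 channels they join, and auxiliary subunits change the gating or the surface level of the pore. Alpha2 receptors are known for opening GIRK channels and for closing HCN channels through Gi/o proteins, effects on channel proteins that mRNA counts do not measure.

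Total counts per library ran from 5419187 to 16530596, with the deepest libraries in IL after saline. The first principal component separated the regions, at 17.9 to 48.8 in PL libraries and −38.4 to −29.3 in IL libraries. Within PL the component was 22.5, 17.9 and 48.8 in Dex libraries 1 to 3 and 19.6, 46.9 and 48.4 in saline libraries 1 to 3, so that Dex library 3 and saline library 1 each lay away from the others of their group. Libraries also differed in how counts tracked the GC content of transcripts. Per 10% GC the slope on the log2 scale was 0.118, 0.0976 and −0.0665 in PL Dex libraries 1 to 3, against −0.249, −0.304 and −0.0724 in PL saline libraries 1 to 3. In IL it was −0.00764, 0.0442 and 0.19 in Dex libraries 1 to 3, against 0.0268, 0.0895 and 0.133 in saline libraries 1 to 3. PL Dex library 3 was the only PL Dex library with a slope below 0, and the calls that change without it are given beside the results. The neuron marker list, including Snap25 and Slc17a7, summed to 4376 to 5812 CPM in PL after Dex and 4930 to 5489 CPM in PL after saline, against 3087 to 3610 CPM in IL after Dex and 2959 to 3451 CPM in IL after saline, with no marker at 0.

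Every channel family was represented among the 71 genes. On the scale of CPM per kb of exon, which allows genes to be set side by side, the highest mean over the 12 libraries was that of Kcnj4, a strong inward rectifier of forebrain neurons, at 54.8. Kcnma1, the pore of the large-conductance calcium-activated (BK) channel, followed at 40.1 CPM per kb. Kcnab2, a beta subunit of Kv1 channels, stood at 38.1 and the silent subunit Kcnf1 at 37.0 CPM per kb. The axonal Kv1 subunits Kcna2 and Kcna1 reached 34.4 and 34.0 CPM per kb. These levels per kb span less than 1 log2 unit, and neighbours in the order between Kcnma1 and Kcna1 lie close together.

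**Figure D1:**
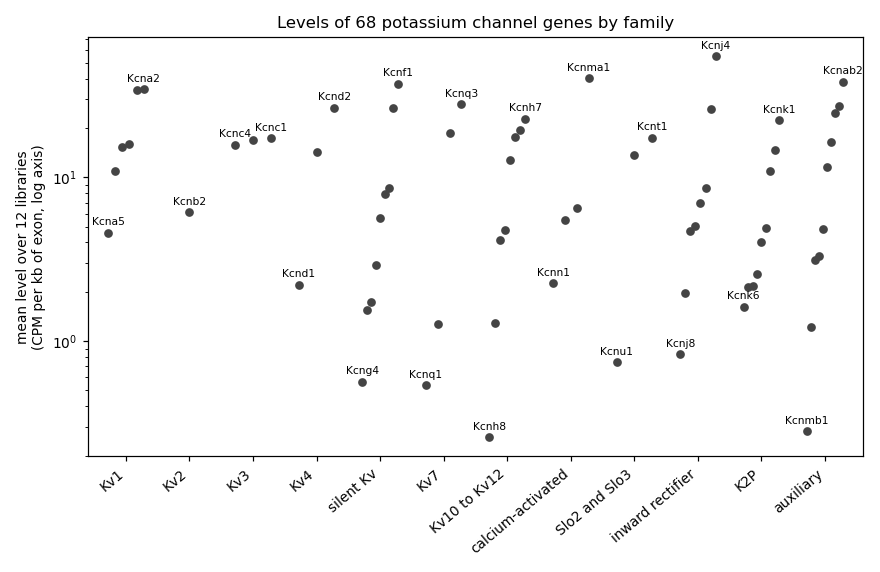
Mean level of each of 68 genes over the 12 libraries, in CPM per kb of exon on a log axis, by channel family; each point is 1 gene and the highest and lowest gene plotted in a family are named. Kcnj4 stands highest at 54.8 CPM per kb and Kcnh8 lowest at 0.259.

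Within families the levels per kb were uneven. In Kv1, 6 of 8 symbols were members, from Kcna2 down to Kcna5 at 4.56 CPM per kb. The Kv2 gene Kcnb2 stood at 6.11. Of the Kv3 genes, the fast delayed rectifiers of rapidly firing cells, Kcnc1 stood at 17.3 and Kcnc4 at 15.7 CPM per kb. Of the 3 Kv4 genes, which carry the dendritic A-type current, Kcnd2 was highest at 26.5 and Kcnd1 lowest at 2.21 CPM per kb. Among the 5 Kv7 genes, Kcnq1, best known from heart muscle, was lowest at 0.536. The 8 genes of Kv10 to Kv12 ran from Kcnh7, of the ERG subfamily, at 22.7 down to Kcnh8 at 0.259 CPM per kb.

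Of the silent Kv symbols 9 of 10 were members, between 0.562 for Kcng4 and 37.0 for Kcnf1. The calcium-activated group held 4 of 5 symbols, with the small-conductance channel Kcnn1 lowest at 2.26. The sodium-activated channel Kcnt1 stood at 17.4 CPM per kb and its relative Kcnt2 at 13.6, whereas Kcnu1, known as the potassium channel of sperm, stood at 0.741. Inward rectifiers held 8 of 15 symbols, including Kcnj10, the main inward rectifier of astrocytes, at 26.0 CPM per kb, and Kcnj8, known from pericytes, at 0.832. K2P channels held 9 of 14 symbols, from Kcnk1 at 22.3 to Kcnk6 at 1.61. Auxiliary subunits held 10 of 15 symbols, down to Kcnmb1, the BK beta subunit of smooth muscle, at 0.281 CPM per kb.

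Of the most abundant inward rectifiers, Kcnj4 had lower values in PL than in IL and Kcnj10 had overlapping ones. Kcnj4 had 115, 98.1 and 106 CPM in PL after Dex, 90.2, 75.9 and 101 CPM in PL after saline, 121, 123 and 192 CPM in IL after Dex and 102, 123 and 168 CPM in IL after saline. In both regions the Dex and saline values of Kcnj4 overlapped, and after saline all 3 PL libraries lay below all 3 IL libraries, with a log2 fold change of −0.56 and an adjusted p of 0.0581. With the replicate block, in which libraries of 1 batch number are compared, Kcnj4 passed after saline at −0.54 (adjusted p = 0.0084), and with the GC correction it stood at −0.21 (adjusted p = 0.358). Kcnj10 had 167, 113 and 162 CPM in PL after Dex, 160, 96.5 and 136 CPM in PL after saline, 147, 154 and 149 CPM in IL after Dex and 138, 134 and 133 CPM in IL after saline. Its PL against IL log2 fold changes were −0.02 (SE 0.154) after Dex and −0.04 (SE 0.153) after saline.

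**Figure D2:**
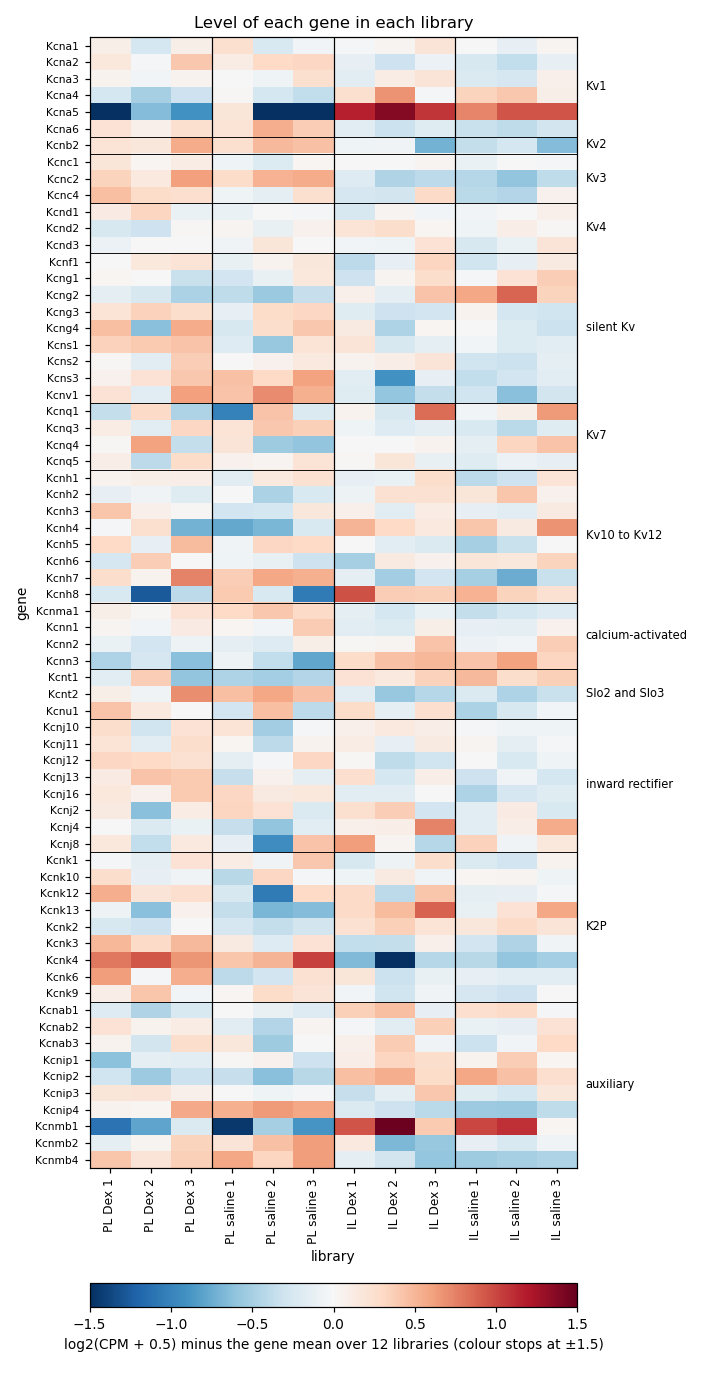
Level of each of 68 genes in each of the 12 libraries, as log2(CPM + 0.5) centred on the mean of each gene, with genes grouped by family and libraries by group; red is above and blue below the gene's mean. Kcnk4 is above its mean in all 6 PL libraries and below it in all 6 IL libraries, and Kcnip2 the reverse. With all 12 libraries, no gene shown passed the threshold for Dex against saline within a region.

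Calls between the regions outnumbered calls for the drug. After Dex, 18 of the 71 genes differed between PL and IL at an adjusted p under 0.05, 11 higher and 7 lower in PL, which is 25.4% of them beside 7.34% of all 20015 genes tested (3.8% higher and 3.54% lower). After saline, 27 differed, 16 higher and 11 lower in PL, which is 38% beside 18.7% of all genes tested (9.97% higher and 8.7% lower). Among genes averaging at least 10 CPM, the shares were 29.6% of 54 channel genes beside 9.94% of all genes after Dex, and 40.7% beside 26.6% after saline. The median log2 fold change of PL against IL over the 71 genes was 0.08 after Dex and 0.05 after saline, beside −0.01 and −0.02 over all genes tested. After the GC correction described further on, in which each library is adjusted for its relation to GC content, these medians of the 71 genes were 0.13 and 0.23. Across the 71 genes the Spearman correlation of the log2 fold change with GC content was −0.206 after Dex and −0.478 after saline, beside −0.0514 and −0.419 over all genes with a GC value. The PL and IL values of the called genes did not overlap for any of the 18 after Dex and for 26 of the 27 after saline, the exception being Kcnh5. Over all 71 genes the regions did not overlap for 32 (45.1%) in either condition, beside 21.6% of all genes after Dex and 40.3% after saline. Each called gene differed in the same direction in all 3 pairs of libraries with the same batch number. Where the values do not overlap this must be so, and only Kcnh5 after saline could have differed.

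The calls after Dex and after saline compare different libraries, although both came from the same fit over all libraries. Together the calls covered 30 genes, and 15 were called in both, 9 higher and 6 lower in PL each time. That is 83.3% of the calls after Dex and 55.6% of those after saline. The matching shares over all genes tested were not counted. Whether the overlap is particular to channel genes therefore cannot be told from these percentages. The genes called after Dex but not after saline were 3, namely Kcnk3 and Kcng3, higher in PL, and Kcnab1, lower in PL. For these 3 the log2 fold change after saline had the same sign, at 0.33, 0.35 and −0.28 (adjusted p of 0.185, 0.12 and 0.152). With the GC correction all 3 passed after saline as well, at 0.66 (adjusted p = 0.00425), 0.48 (adjusted p = 0.0368) and −0.41 (adjusted p = 0.0228). The difference between the regional effects itself is tested further on, as the region by drug interaction.

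**Figure D3:**
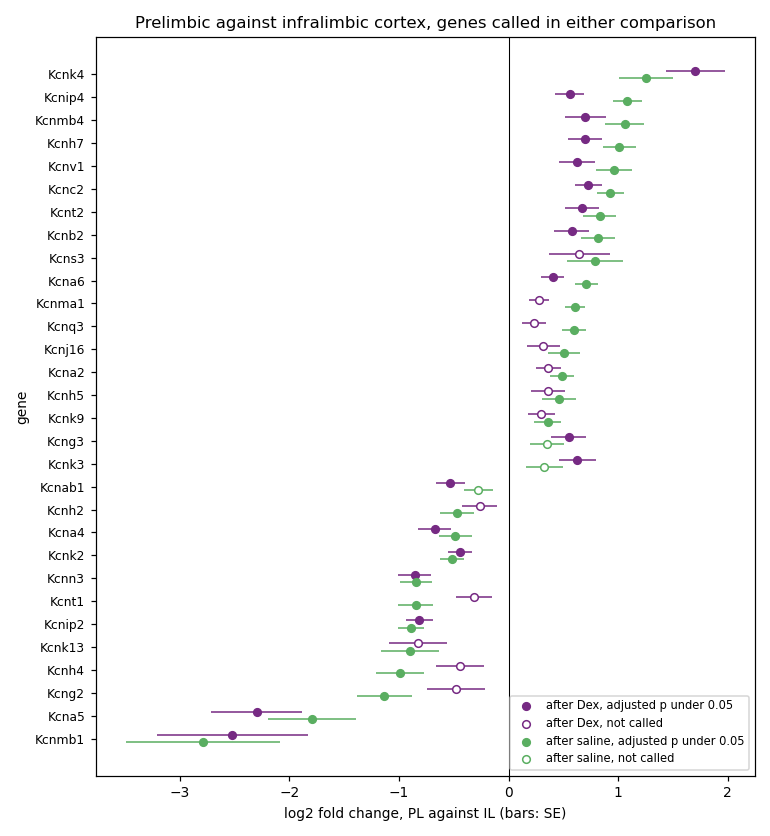
Log2 fold change of PL against IL (x axis, bars are SE) after Dex (purple) and after saline (green) for the 30 genes called in either comparison; filled points have an adjusted p under 0.05. All 30 genes lie on the same side of 0 in both conditions, from Kcnk4 at 1.71 after Dex to Kcnmb1 at −2.79 after saline.

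The largest regional rise belonged to Kcnk4, a K2P leak channel gated by membrane stretch and lipids (chromosome 19, 6923966 to 6934515, GRCm38). Kcnk4 had 14.6, 16.1 and 13.3 CPM in PL after Dex against 4.99, 2.10 and 6.00 CPM in IL after Dex. After saline it had 11.1, 11.9 and 17.3 CPM in PL against 6.03, 5.33 and 5.59 CPM in IL. Every PL library lay above every IL library, a 3.26-fold difference after Dex (log2 fold change 1.71, SE 0.271, adjusted p = 0.000539) and a 2.39-fold difference after saline (1.25, SE 0.25, adjusted p = 0.00188). Of the exon bases of Kcnk4, 13.1% are shared with Catsperz on the same strand, so reads from that stretch cannot be assigned to either gene.

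The deepest falls belonged to Kcna5 and Kcnmb1. Kcna5, a Kv1 delayed rectifier known from heart and vessel muscle (chromosome 6, 126532551 to 126535412, GRCm38), had 3.13, 6.10 and 5.02 CPM in PL after Dex against 22.6, 26.3 and 21.3 CPM in IL after Dex. After saline Kcna5 had 11.2, 2.46 and 3.02 CPM in PL against 16.6, 19.4 and 19.4 CPM in IL. The regions did not overlap, although PL saline library 1 stood well above the other PL libraries. The level in IL was 4.92 times that in PL after Dex (log2 fold change −2.30, SE 0.415, adjusted p = 0.0045) and 3.46 times after saline (−1.79, SE 0.401, adjusted p = 0.00874). Without PL saline library 1 the log2 fold change after saline was −2.75. Kcnmb1 rested on few reads, with 1, 2 and 5 counts in PL after Dex against 12, 22 and 14 counts in IL after Dex, and 0, 4 and 2 counts in PL after saline against 25, 35 and 15 counts in IL after saline. Its log2 fold changes were −2.52 (SE 0.689) after Dex and −2.79 (SE 0.706) after saline.

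**Figure D4:**
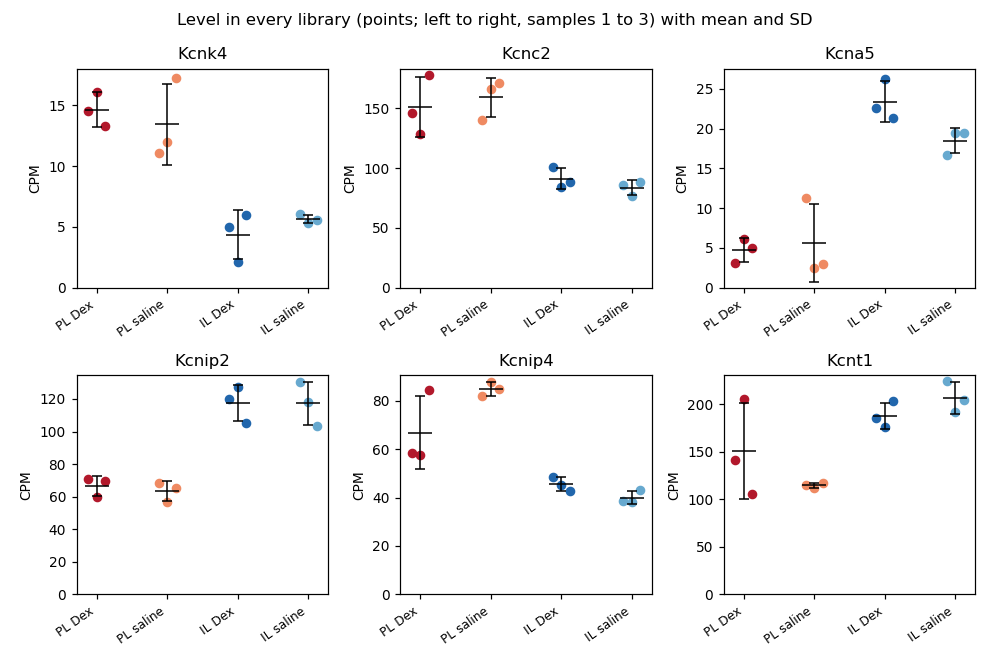
Level in CPM of 6 genes in every library, as points for samples 1 to 3 with the group mean and SD as bars, in the order PL Dex, PL saline, IL Dex and IL saline. Kcnk4, Kcnc2 and Kcnip4 lie higher in PL and Kcna5 and Kcnip2 lower, while Kcnt1 in PL after Dex spreads from 106 to 206 CPM beside 111 to 117 CPM in PL after saline.

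The promoter windows of the region-dependent genes are shown for the 2 highest and 2 lowest folds after saline among genes called in both conditions that averaged at least 5 CPM and had a single RefSeq window (GRCm38.p6, 300 bases around the annotated start). They serve to show how unlike the start regions of these 4 genes are. All lie on the minus strand and are written 5′ to 3′, with each GC box (GGGCGG on either strand) in capitals.
Kcnk4, chr19:6934466-6934765, higher in PL: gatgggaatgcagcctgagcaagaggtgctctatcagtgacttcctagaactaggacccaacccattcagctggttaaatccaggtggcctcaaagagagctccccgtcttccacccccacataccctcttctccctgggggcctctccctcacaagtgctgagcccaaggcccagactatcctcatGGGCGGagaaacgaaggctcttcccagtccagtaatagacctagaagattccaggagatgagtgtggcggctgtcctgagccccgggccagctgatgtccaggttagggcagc
Kcnmb4, chr10:116473474-116473773, higher in PL: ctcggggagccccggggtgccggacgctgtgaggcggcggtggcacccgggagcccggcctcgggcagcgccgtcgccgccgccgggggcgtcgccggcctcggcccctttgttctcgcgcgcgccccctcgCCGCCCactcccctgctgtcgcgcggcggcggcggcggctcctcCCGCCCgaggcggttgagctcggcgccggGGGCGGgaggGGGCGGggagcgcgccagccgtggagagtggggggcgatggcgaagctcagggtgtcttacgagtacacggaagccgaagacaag
Kcna5, chr6:126535506-126535805, lower in PL: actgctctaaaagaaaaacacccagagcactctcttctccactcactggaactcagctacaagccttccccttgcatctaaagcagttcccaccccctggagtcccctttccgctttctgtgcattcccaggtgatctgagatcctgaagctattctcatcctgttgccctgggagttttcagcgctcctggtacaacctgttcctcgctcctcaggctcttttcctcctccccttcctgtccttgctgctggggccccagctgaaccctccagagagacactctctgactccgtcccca
Kcnip2, chr19:45816014-45816313, lower in PL: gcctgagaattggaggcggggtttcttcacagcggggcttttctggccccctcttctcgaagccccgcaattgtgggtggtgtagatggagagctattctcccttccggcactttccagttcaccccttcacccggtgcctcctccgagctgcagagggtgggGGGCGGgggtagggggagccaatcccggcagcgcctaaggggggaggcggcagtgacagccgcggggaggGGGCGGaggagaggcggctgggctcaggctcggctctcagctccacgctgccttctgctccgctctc

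The GC content of these windows was 57.3% for Kcnk4, 79% for Kcnmb4, 55% for Kcna5 and 67% for Kcnip2, and they held 1, 4, 0 and 2 GC boxes. A window was found for 49 of the 71 genes. The GC box occurred in 33 of them (67.3%), beside 38.2% of 27025 genes with a window. The TATA box TATAAA occurred in 3 (6.12%) beside 15.7%, the E-box CACGTG in 3 (6.12%) beside 8.09%, and the cyclic AMP response element TGACGTCA in 0 beside 2.03%, with both strands searched. These are matches of letters in a fixed window and are no measure of binding. The 27025 genes were not limited to those tested here, and a gene counted if any of its windows matched. The shares are therefore not a like comparison.

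Among voltage-gated alpha subunits, the genes higher in PL in both conditions were Kcna6 (Kv1), Kcnb2 (Kv2), Kcnc2 (Kv3) and Kcnh7 (ERG). Kcnc2, known from fast-spiking interneurons and thalamus, had 146, 129 and 178 CPM in PL after Dex against 101, 84.3 and 88.2 CPM in IL after Dex. After saline Kcnc2 had 140, 166 and 171 CPM in PL against 85.8, 76.7 and 88.5 CPM in IL, so that the regions did not overlap in either condition. Its log2 fold changes were 0.73 (SE 0.124, adjusted p = 0.000938) after Dex and 0.93 (SE 0.122, adjusted p = 5.81e-05) after saline. The PV interneuron list of Pvalb, Gad1, Tac1 and Syt2 summed to 234 to 300 CPM in PL after Dex and 279 to 383 CPM in PL after saline, against 438 to 634 CPM in IL after Dex and 413 to 547 CPM in IL after saline. Of its 4 genes, 2 were called lower in PL after Dex and 1 after saline, and 0 higher. A list of other interneurons held Sst, Npy, Vip and Gad2. In PL it summed to 219 to 287 CPM after Dex and 266 to 397 CPM after saline. In IL it summed to 378 to 469 CPM after Dex and 357 to 467 CPM after saline. Of these 4 genes, 1 was called higher and 1 lower in PL after Dex, and 2 higher and 0 lower after saline. The part of interneurons in the Kcnc2 values was not tested. Kcnh7 averaged 428 ± 109 CPM in PL after Dex against 264 ± 34.5 CPM in IL after Dex, and 463 ± 35.7 CPM in PL against 229 ± 32.3 CPM in IL after saline (SD, n = 3 each), with log2 fold changes of 0.70 (SE 0.152) and 1.01 (SE 0.152).

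Kcna6 rose by 0.40 after Dex and 0.71 after saline on the log2 scale in PL over IL, and Kcnb2 by 0.58 and 0.82. Of the exon bases of Kcna6, 39.6% are shared with an overlapping transcript, Gm26673, and the counts used no strand. Kcna4, the A-type Kv1 subunit, was lower in PL in both conditions, with log2 fold changes of −0.68 after Dex and −0.49 after saline. After saline Kcna2, Kcnq3 and the EAG-subfamily gene Kcnh5 were also higher in PL, with log2 fold changes of 0.49, 0.60 and 0.46, while Kcnh2 and Kcnh4 were lower, at −0.47 and −0.99. Kcnq3, a Kv7 subunit of the M current that restrains repeated firing, averaged 505 ± 36.5 CPM in PL against 334 ± 26.3 CPM in IL after saline. No Kv4 gene was called between regions in either condition in the main fit. With the GC correction Kcnd2 passed after Dex, lower in PL at −0.34 (adjusted p = 0.028).

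Among silent subunits, Kcnv1 was higher in PL in both conditions, with log2 fold changes of 0.62 after Dex and 0.96 after saline. Kcng3 was higher after Dex at 0.55, Kcns3 was higher after saline at 0.79, and Kcng2 was lower after saline at −1.13. The sodium-activated pair lay on opposite sides. Kcnt2 had 95.4, 86.8 and 146 CPM in PL after Dex against 79.6, 60.2 and 66.8 CPM in IL after Dex, and 123, 134 and 122 CPM in PL against 77.0, 65.0 and 71.1 CPM in IL after saline. Its log2 fold changes were 0.67 (adjusted p = 0.011) and 0.83 (adjusted p = 0.00115). Kcnt1 had 141, 206 and 106 CPM in PL after Dex against 185, 176 and 203 CPM in IL after Dex, and the groups overlapped (log2 fold change −0.32, SE 0.163, adjusted p = 0.299). After saline Kcnt1 was lower in PL, with 115, 111 and 117 CPM against 224, 192 and 204 CPM in IL (log2 fold change −0.85, SE 0.164, adjusted p = 0.00214).

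The calcium-activated channels showed a similar contrast within a family. Kcnn3, a small-conductance channel of the afterhyperpolarisation, had 39.2, 45.4 and 35.1 CPM in PL after Dex against 65.9, 73.5 and 76.6 CPM in IL after Dex, and 51.5, 42.0 and 31.5 CPM in PL against 73.2, 82.9 and 67.9 CPM in IL after saline. All PL libraries lay below all IL libraries, with log2 fold changes of −0.86 (SE 0.15, adjusted p = 0.00118) and −0.85 (SE 0.147, adjusted p = 0.000645). Kcnma1 averaged 726 ± 51.0 CPM in PL against 597 ± 36.7 CPM in IL after Dex, and missed the threshold of the test (log2 fold change 0.28, adjusted p = 0.067), which it passed with the replicate block (adjusted p = 0.045). After saline it averaged 845 ± 38.9 CPM in PL against 556 ± 31.3 CPM in IL (log2 fold change 0.60, adjusted p = 0.000197).

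Auxiliary subunits were called 5 times after Dex and 4 times after saline. Kcnip2, a calcium-binding partner of Kv4 channels, had 71.0, 59.8 and 69.5 CPM in PL after Dex against 120, 128 and 105 CPM in IL after Dex. After saline Kcnip2 had 68.5, 56.5 and 65.1 CPM in PL against 130, 118 and 104 CPM in IL, a fall by 0.81 after Dex and by 0.89 after saline on the log2 scale (adjusted p = 0.000259 and 6.33e-05). Its relative Kcnip4 was higher in PL, with 58.4, 57.6 and 84.2 CPM in PL against 48.5, 45.3 and 42.6 CPM in IL after Dex, and 82.0, 87.8 and 84.6 CPM in PL against 38.4, 38.3 and 43.2 CPM in IL after saline. The log2 fold changes of Kcnip4 were 0.56 (SE 0.134, adjusted p = 0.0126) and 1.08 (SE 0.131, adjusted p = 2.78e-05). Kcnmb4, the chief BK beta subunit of neurons, averaged 13.2 ± 1.08 CPM in PL against 8.27 ± 1.33 CPM in IL after Dex and 15.2 ± 1.72 CPM in PL against 7.27 ± 0.166 CPM in IL after saline (log2 fold changes 0.70 and 1.06). Its exons share 31.5% of their bases with antisense transcripts, which unstranded counts cannot separate. Kcnab1, a Kv1 beta subunit, was lower in PL after Dex, at −0.53 (adjusted p = 0.0171).

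Among K2P channels Kcnk2, of the same stretch-sensitive subfamily as Kcnk4, was lower in PL in both conditions, with log2 fold changes of −0.44 and −0.52. Kcnk3, an acid-sensitive leak channel, had 27.1, 23.2 and 26.8 CPM in PL after Dex against 14.6, 14.7 and 20.0 CPM in IL after Dex, a log2 fold change of 0.63. Its relative Kcnk9 was called after saline at 0.36, and Kcnk13, a leak channel of microglia in mice, was lower in PL after saline at −0.90. The microglia list with Cx3cr1 and P2ry12 summed to 140 to 163 CPM in PL after Dex and 139 to 155 CPM in PL after saline, against 154 to 166 CPM in IL after Dex and 148 to 158 CPM in IL after saline. Of the inward rectifiers 1 of 8 was called, Kcnj16, a partner of Kcnj10, at 0.51 after saline, and it stood at 0.35 with the GC correction (adjusted p = 0.101).

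Lists of cell types that neighbour the cortex also moved with region. The striatal list of Drd1, Drd2, Adora2a, Ppp1r1b and Rgs9 summed to 86.7 to 175 CPM in PL after Dex and 83.4 to 257 CPM in PL after saline, against 431 to 663 CPM in IL after Dex and 447 to 563 CPM in IL after saline. In PL 3 of its 5 genes were lower after Dex and 4 of 5 after saline. The ependymal list summed to 1.63 to 2.45 CPM in PL after Dex and 1.05 to 2.90 CPM in PL after saline, against 5.35 to 13.1 CPM in IL after Dex and 9.70 to 13.7 CPM in IL after saline. The part of these cell types in the regional values of the channel genes was not tested. In bulk tissue, fewer cells of a type and less RNA per cell cannot be told apart. The mural list, which bears on Kcnmb1, summed to 128 to 178 CPM in PL after Dex and 151 to 163 CPM in PL after saline, against 135 to 148 CPM in IL after Dex and 132 to 149 CPM in IL after saline. Of its 4 genes, 1 was called lower in PL after saline and 0 higher, and 0 were called after Dex.

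Some of the regional calls were lost under at least 1 alternative, and others were gained. The GC correction called 24 genes after Dex (33.8%, beside 9.54% of all genes), including all 18. After saline it called 31 (43.7%, beside 13.6% of all genes), of which 24 were among the 27. Kcnc4 was gained at 0.47 after Dex and 0.62 after saline (adjusted p = 0.0152 and 0.00171). Others were Kcna3 at 0.55 after saline (adjusted p = 0.00786) and Kcnip1 at −0.54 after Dex (adjusted p = 0.0342). Leaving out a library also leaves its group with fewer samples, and the share of all genes called then fell in most fits. After Dex, Kcnk4, Kcnc2, Kcnh7, Kcna5, Kcnn3 and Kcnip2 kept their calls under every alternative run, and 12 other called genes did not. Without IL Dex library 2, 7 of the 71 genes were called (9.86%, beside 3.75% of all genes). Kcnt2 (adjusted p = 0.0701), Kcna6 (0.131), Kcnk2 (0.105), Kcnab1 (0.129), Kcna4 (0.0924), Kcnmb1 (0.152), Kcnk3 (0.139), Kcng3 (0.146), Kcnv1 (0.127), Kcnip4 (0.0529) and Kcnmb4 (0.0683) then no longer passed. Without PL Dex library 3, 12 of the 71 genes were called (16.9%, beside 5.32% of all genes) and 8 of the 18 calls ended. Kcnip4 then had a log2 fold change of 0.36 (adjusted p = 0.0588), Kcnv1 of 0.41 (adjusted p = 0.113) and Kcnb2 of 0.45 (adjusted p = 0.17), while Kcnt2 at 0.41 remained called. The other calls that ended were Kcnmb4 (adjusted p = 0.0572), Kcnk3 (0.0671), Kcng3 (0.0703), Kcna4 (0.0509) and Kcnab1 (0.0529), with log2 fold changes of 0.69, 0.60, 0.56, −0.69 and −0.55. Without PL Dex library 1, 11 of the 71 genes were called (15.5%, beside 4.83% of all genes). Leaving out IL Dex library 1, IL Dex library 3 or PL Dex library 2 ended 4, 6 and 4 of the 18 calls, among them Kcnb2 without IL Dex library 3 (log2 fold change 0.38, adjusted p = 0.134). Kcng3 lost its call after Dex without any 1 of the 6 libraries compared (adjusted p up to 0.146). After saline, 18 of the 27 called genes kept their calls under every alternative run, and Kcns3, Kcna5, Kcnh4, Kcnk13, Kcna4, Kcnh2, Kcnh5, Kcnj16 and Kcnk9 lost theirs under at least 1. Kcna5 missed the threshold in a fit to the compared libraries alone (adjusted p = 0.0571) and Kcnh4 with GC correction and the replicate block (adjusted p = 0.0505). Kcns3 lost its call without any 1 of the 6 libraries (adjusted p up to 0.109), Kcnk13 without PL saline or IL saline library 2 or 3 (up to 0.128), and Kcna4 and Kcnh2 without PL saline library 2 or 3 or IL saline library 1 or 2 (up to 0.121 and 0.193). Kcnh5 and Kcnk9 lost theirs without the same libraries as Kcna4 (up to 0.185 and 0.179), and Kcnj16 without PL saline library 1 or IL saline library 1 or 2 (up to 0.0917). Kcnh2 had a log2 fold change of −0.08 and Kcnk13 of −0.65 after correction for GC content (adjusted p of 0.772 and 0.103).

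Dex against saline in PL gave no call among the 71 genes, beside 0.02% of all genes tested, and DESeq2 gave none either. At an unadjusted p under 0.05 there were 10 genes, 14.1% beside 13.9% of all genes tested, of which 8 were higher and 2 lower after Dex, beside 6.97% and 6.93% of all genes. The median log2 fold change over the 71 genes was 0.04, beside −0.00 over all genes tested, and 41 of 71 were positive (57.7% beside 49.7%). For 60 of the 71 genes the 95% interval of the log2 fold change lay within 1 unit of 0, and its median reach to either side of the estimate was 0.33. Among those with higher values after Dex the log2 fold changes were 0.58 (Kcns1), 0.40 (Kcnt1), 0.56 (Kcnk6), 0.37 (Kcnk3), 0.30 (Kcnab2), 0.29 (Kcnh3) and 0.61 (Kcnk12). Adjusted p for these 7 genes lay between 0.285 and 0.355.

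Kcnip4 stood at 58.4 and 57.6 CPM in PL Dex libraries 1 and 2 and at 84.2 CPM in library 3, against 82.0, 87.8 and 84.6 CPM in PL after saline. Its log2 fold change was −0.35 (SE 0.131, adjusted p = 0.273), and Dex library 3 lay among the saline libraries. Kcnma1, the other gene with lower values, had 714, 682 and 782 CPM in PL after Dex against 827, 890 and 819 CPM in PL after saline, with no overlap (log2 fold change −0.22, SE 0.0909, adjusted p = 0.301). Kcns1, a silent subunit, had 9.93, 10.3 and 10.6 CPM in PL after Dex against 6.68, 5.04 and 8.94 CPM in PL after saline (adjusted p = 0.285).

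Of the 12 families, 4 are given here by the signs of their values, chosen after these were seen and read beside the 41 of 71 genes above 0 in PL and the 54 of 71 in IL. For Dex in PL, 0 of the 6 Kv1 genes, 0 of the 4 calcium-activated genes, 8 of the 9 K2P genes and 7 of the 8 inward rectifiers had log2 fold changes above 0, and the Kv1 values lay between −0.20 and −0.02. With the GC correction these counts were 1, 1, 7 and 6, beside 34 of all 71. In IL all 6 Kv1 genes were above 0, between 0.03 and 0.33. Genes of a library share that library, so these counts are descriptions.

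The values in PL ran with the GC content of the transcripts. Over the 71 genes the Spearman correlation of the log2 fold change of Dex against saline with GC content was 0.654 in PL, beside 0.529 over all tested genes with a GC value, and −0.239 in IL. The correlation is across genes of the same libraries, which share depth and base composition, and carries no test. Kcnk12 is at 69.4% GC and Kcns1 at 60.9%, whereas Kcnip4 is at 40.1% and Kcnma1 at 45.2%. After each library was corrected for its relation to GC, 2 of the 71 genes had an unadjusted p under 0.05 in PL, both lower after Dex. That is 2.82% beside 5.96% of all genes, against 13.9% of all genes before the correction. The median log2 fold change of the 71 genes was −0.00 after it. Kcnip4 then had a log2 fold change of −0.12 and Kcnt1 of 0.20.

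**Figure D5:**
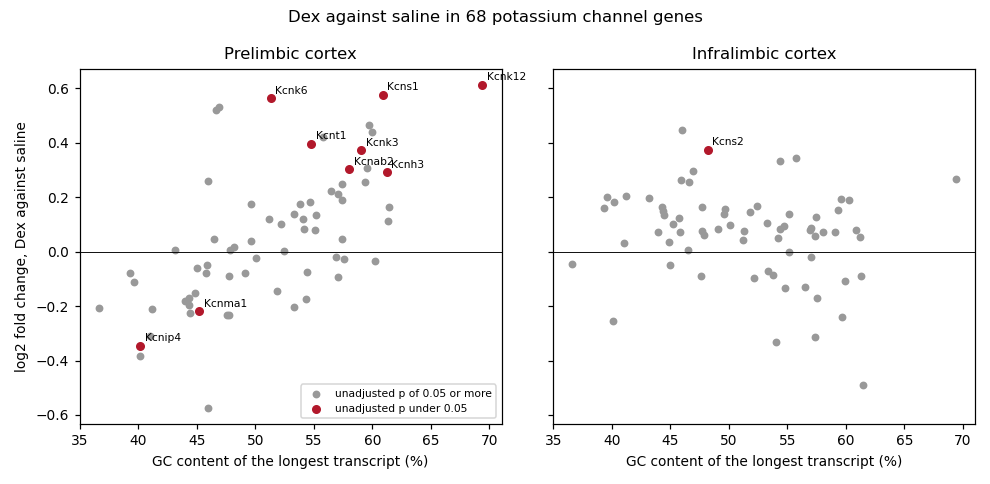
Log2 fold change of Dex against saline (y axis) against the GC content of each gene's longest transcript in percent (x axis) for 68 genes, in PL (left) and IL (right); red points have an unadjusted p under 0.05. In PL the points climb with GC (Spearman 0.654 over 71 genes) and in IL they do not (−0.239).

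Without PL Dex library 3 there were 6 calls for Dex in PL, 8.45% of the 71 genes beside 7.07% of all genes tested in that fit. Kcnt1, a sodium-activated channel, was higher at 0.60 (adjusted p = 0.01). Kcnip4 was lower at −0.54 (adjusted p = 0.00883), Kcnt2 at −0.46 (adjusted p = 0.0228), Kcnv1 at −0.52 (adjusted p = 0.0371) and Kcnq3 at −0.34 (adjusted p = 0.0465). With the GC correction as well, and still without that library, none of the 71 genes passed, beside 0.258% of all genes tested. Over all alternatives the adjusted p ran from 0.01 to 0.895 for Kcnt1 and from 0.00883 to 0.933 for Kcnip4.

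Dex against saline in IL gave no call among the 71 genes and none among all genes tested (0%), and DESeq2 gave none for the 71. At an unadjusted p under 0.05 there was 1 gene, Kcns2, which is 1.41% beside 1.06% of all genes tested. Kcns2, a silent subunit that joins Kv2 channels, had 49.2, 51.0 and 54.5 CPM in IL after Dex against 38.4, 38.0 and 43.0 CPM in IL after saline. The groups did not overlap (log2 fold change 0.37, SE 0.128, adjusted p = 1.00). In PL Kcns2 had 48.0, 42.2 and 61.3 CPM after Dex against 47.4, 49.7 and 52.6 CPM after saline, with a log2 fold change of 0.02. Over the 71 genes the median log2 fold change in IL was 0.08, beside 0.01 over all genes, and 54 of 71 were positive (76.1% beside 51.8%). Across the alternatives 43 to 54 genes were positive. For 67 of the 71 genes the 95% interval lay within 1 log2 unit of 0.

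Other genes with small p in IL stayed above 0.05 unadjusted. Kcng2, a silent subunit, had 5.17, 4.35 and 6.73 CPM in IL after Dex against 7.56, 9.34 and 6.31 CPM in IL after saline (log2 fold change −0.49, unadjusted p = 0.0558). Kcnd2 had 156, 163 and 138 CPM in IL after Dex against 130, 145 and 137 CPM in IL after saline (0.15). The groups overlapped for both genes. Kcnk13 at 0.34, Kcnip4 at 0.18, Kcnu1 at 0.45, Kcnj16 at 0.20, Kcnh7 at 0.20 and Kcnq5 at 0.16 were others, all with an adjusted p of 1.00.

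The region by drug interaction, which is the effect of Dex in PL minus that in IL, gave no call among the 71 genes or among all genes tested (0%), and DESeq2 gave none for the 71. At an unadjusted p under 0.05 there were 5 of 71 genes (7.04%, beside 6.73% of all genes). These were Kcnip4 at −0.53 (SE 0.187), Kcnma1 at −0.32, Kcnq3 at −0.36, Kcnd2 at −0.32 and Kcnt1 at 0.53, with adjusted p of 0.716. Others with small p were Kcna6 at −0.31, Kcns2 at −0.36, Kcng2 at 0.65 and Kcnh4 at 0.55. Over the 71 genes the median interaction was −0.02, beside 0.00 over all genes, and the Spearman correlation with GC content was 0.675. Without PL Dex library 3, Kcnip4 at −0.72 (adjusted p = 0.0395) and Kcnt1 at 0.74 (adjusted p = 0.0459) were called, 2.82% of the 71 genes beside 0.686% of all genes, and with the GC correction as well there were no calls. The interaction and the Dex comparison in PL share the PL libraries, so these values are not separate evidence.

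Proteins that bind, anchor or regulate potassium channels, with the GIRK and HCN genes, made up a list of 27 genes, of which 26 were tested. None was called for Dex in PL, for Dex in IL or for the interaction. Between regions, 2 of the 26 were higher in PL after Dex and 10 after saline, and 0 were lower. Without the GIRK and HCN genes these were 1 and 7 of 19 tested. The counts for this list come from the main fit and were not repeated with the GC correction or another alternative. Of all genes tested, 7.34% were called after Dex (3.8% higher and 3.54% lower in PL). After saline 18.7% were called (9.97% higher and 8.7% lower). Dpp10, which joins Kv4 channels and speeds their gating, averaged 302 ± 28.5 CPM in PL against 174 ± 17.95 CPM in IL after Dex and 348 ± 23.6 CPM in PL against 173 ± 8.09 CPM in IL after saline (SD, n = 3 each). Its log2 fold changes were 0.80 (SE 0.103, adjusted p = 8.13e-05) and 1.01 (SE 0.102, adjusted p = 4.49e-06). Dpp6, which has the same role, had log2 fold changes of −0.18 and −0.27 with adjusted p of 0.293 and 0.0524.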

How the data were processed

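The table deposited by the authors holds raw counts for each gene. Per the file headers, featureCounts 2.0.1 counted read pairs over the exons of a gene identifier, without regard to strand, on the GRCm38 annotation of release 98. The submitters' processing notes also name bcl2fastq, Trim Galore, HISAT2 and SAMtools 1.8, and the build mm39; gene coordinates in the table are those of GRCm38. Of the count columns, 12 matched no sample and were not used. Reads in exon bases shared with another gene, which 21 of the 71 genes have, cannot be told apart without strand.

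Symbols came from the reference gene names (55154 of 55421 genes matched). Tests used edgeR 4.0.16 (R 4.3.3): filterByExpr, TMM scaling (factors 0.935 to 1.05), and a robust quasi-likelihood fit of 1 mean per group over all 12 libraries, with 8 residual degrees of freedom and a common biological coefficient of variation of 0.143. P-values were two-sided and adjusted by the Benjamini-Hochberg method over 20015 genes, with a threshold of 0.05. CPM are counts scaled to a library of 1000000 after TMM scaling, except the limit of 1 CPM, which used total counts. The fit was also run on simulated counts drawn without the GC slopes or the batch likeness of the real libraries. That run therefore does not bear on either feature.

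The 71 genes, the families and the partner and marker lists were chosen with earlier results of these data known. Named genes are those past the threshold, up to 12 in each direction per comparison, or the 10 with the smallest p where fewer than 10 passed, the 8 highest levels per kb and the highest of each family. Other genes called between regions, and the family members given by level or direction, were named after their values were seen. Per the labels, each sample number is also a batch number, so the replicate block compares libraries of 1 batch number; the main fit has no block. Deviations of same-numbered libraries from group means correlated at 0.284, 0.294 and 0.337 between IL Dex and IL saline and at 0.108, 0.00858 and 0.0736 between PL Dex and PL saline. Between regions they correlated at 0.0377, −0.0933 and −0.0263 after Dex and at 0.0652, 0.0265 and 0.191 after saline. Alternatives were RLE scaling, no count filter, the replicate block, a GC correction (lowess of each library's log2 CPM on GC of the longest GENCODE transcript, span 0.3) with and without the block, DESeq2 1.42.0, a fit to the compared libraries, and each library left out. The GC correction without PL Dex library 3, and levels on total counts, were added after seeing the data. Some genes that this rule takes are not reported here. No protein sequences were used here.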

Additional observations from a re-analysis of the deposited data

How the results depend on the processing

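No called gene, and none of the 10 with the smallest p in a comparison without calls, changed direction under the alternatives run. Signs of values near 0 did change, as the counts by family show. The median log2 fold change over the 71 genes ran from −0.08 to 0.10 for Dex in PL and from −0.17 to 0.06 for the interaction. For Dex against saline in PL, leaving out 1 library at a time gave 0 to 6 calls among the 71 genes, the 6 without PL Dex library 3, and for Dex against saline in IL it gave 0 to 0. For PL against IL after Dex, where 18 genes were called, the range was 7 to 20, with 7 without IL Dex library 2 and 11 without PL Dex library 1. The share of all genes called ran from 3.75% to 8.28% in the same fits. A fit to the compared libraries alone, which holds fewer samples, called 10 (14.3%, beside 5.79% of all genes). The GC correction with the replicate block called 28 (39.4%, beside 11.9% of all genes). For PL against IL after saline, where 27 were called, the range was 20 to 26, beside 8.99% to 15.2% of all genes. The interaction gave 0 to 2 calls, the 2 without PL Dex library 3. The replicate block called 22 genes between regions after Dex and 31 after saline, including all of the 18 and the 27, and changed no other call. Of all genes, that fit called 8.63% after Dex and 20.9% after saline. With the GC correction and the block, 35 genes were called after saline (49.3%, beside 16.7% of all genes). Of the 35, 26 were higher and 9 lower in PL (74.3% higher), beside 59.3% higher in the main fit. The causes of these changes were not tested. Kcnmb1 and Kcnh8, at about 1 CPM, rest on the fewest counts.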
